A study of Mus musculus with 4 samples.

Results

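Salivary gland secretory genes are described here as 10 genes: 6 that encode proteins secreted into saliva (Dcpp1, Dcpp2, Dcpp3, Smgc, Muc19 and Bpifa2), the water channel gene Aqp5, and the transcription factor genes Bhlha15, Elf5 and Ehf. All 10 were found by symbol among the 24972 rows of the deposited table. They were chosen by their normalized counts in these same libraries, so their levels are a description and no p-value is given for them. The tissue is the mandibular dental arch, where the lower teeth form, taken from mice on embryonic day 17.5. There are 2 libraries of genotype Ascl5WTWT (wild type, libraries 15 and 20) and 2 of genotype Ascl5MutMut (homozygous for an Ascl5 variant, called mutant here, libraries 18 and 14). The variant itself, the strain, the sex and whether a library pools embryos are not stated in the labels, and the labels do not say how close to the gland the tissue was cut.

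Mouse salivary glands arise as buds of oral epithelium that branch into the mesenchyme of the floor of the mouth, where the submandibular and sublingual glands come to lie along the inner side of the lower jaw. The tips of the branches become acini, the units that make saliva, and ducts carry it to the mouth. Acinar and proacinar cells are known for making a small set of proteins in very large amounts, so their RNA serves as a sensitive sign of gland tissue in a dissection.

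The deposited values are normalized counts that sum to between 22134483 and 22578580 per library. Low values fall near multiples of 1.052, 0.9865, 0.9522 and 1.014 in libraries 15, 20, 18 and 14, so a value near 1 stands for about 1 read. Mutant library 14 stood apart from the others: 39 of the 17979 genes with a mean of at least 1 were at least 8 times higher there than in every other library (on value + 0.5), 0.217% of them, against 19 (0.106%), 7 (0.0389%) and 7 (0.0389%) for libraries 15, 20 and 18. Xist, made from the silenced X chromosome of females, stood at 38619 in library 15 and at 5.005 to 12.7 in the others, so the wild-type libraries differed in sex from each other. Ascl5 itself stood at 21.8 and 37.3 in the wild-type pair (libraries 15 and 20), above the 10.6 and 12.1 of mutant libraries 18 and 14. Markers of the labelled tissue were found: the enamel genes Amelx and Ambn, the bone genes Sp7 and Dmp1 and the cartilage gene Col2a1 were present in all 4 libraries, and Amelx was lowest in library 15 at 263.

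The sequences that matter for reading these values come first. Dcpp1, Dcpp2 and Dcpp3 (demilune cell and parotid proteins) are tandem copies within 38565 bases of chromosome 17 in GRCm38 (GENCODE M21: Dcpp1 23880876 to 23882853, Dcpp2 23880880 to 23900788, Dcpp3 23917458 to 23919441, all on the plus strand). Their coding sequences, 513, 513 and 510 bases long, are 93.8% identical between Dcpp1 and Dcpp2, 93.2% between Dcpp1 and Dcpp3 and 95.3% between Dcpp2 and Dcpp3. Of the stretches of 50 bases in each transcript, 43.3% (Dcpp1), 30.6% (Dcpp2) and 36.5% (Dcpp3) occur unchanged in another copy, and for stretches of 100 bases the shares are 19.9%, 9.39% and 20.4%. Dcpp2 overlaps Dcpp1 on the same strand, and Dcpp2 and Dcpp3 have antisense partners (AC110262.1, AC110262.4 and AC110262.3). How reads were assigned to copies or strands is not stated in the sources, so the split among the copies is uncertain and their sum is the safer value. Coding bases 91 to 180, shown to make clear how few positions tell the copies apart, differ at 6 positions, printed in capitals.
Dcpp1: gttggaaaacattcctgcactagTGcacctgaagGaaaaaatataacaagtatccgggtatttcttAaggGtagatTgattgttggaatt
Dcpp2: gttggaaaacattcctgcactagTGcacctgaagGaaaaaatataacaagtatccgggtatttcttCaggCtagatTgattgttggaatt
Dcpp3: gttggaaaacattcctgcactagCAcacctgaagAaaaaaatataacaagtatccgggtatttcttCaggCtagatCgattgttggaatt
Dcpp2 differs from Dcpp1 at 2 of these 90 bases and Dcpp3 differs from Dcpp1 at all 6.

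Smgc and Muc19 cannot be fully separated either. Smgc (submandibular gland protein C, chromosome 15, 91838265 to 91861438) and the gel-forming mucin gene Muc19 (91838326 to 91934555) start at nearly the same place on the same strand in GENCODE M21 and share 23113 bases of locus. Bpifa2 (parotid secretory protein, chromosome 2, 154008265 to 154016079) overlaps no other annotated gene. Elf5 and Ehf are also neighbours on chromosome 2, with 108410 bases between them, and lie on opposite strands.

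RefSeq promoter windows (GRCm38.p6) were at hand for 8 of the 10 members, among them 5 of the 6 secreted products; Muc19 and Ehf were not matched. The 120 bases before the RefSeq start of those 5 genes are printed as a description only, since the genes were chosen by their levels in these libraries. For Dcpp1 and Dcpp3 this start matches the GENCODE one. The Smgc and Bpifa2 windows reach past the GENCODE start, and the Dcpp2 window lies wholly inside the GENCODE gene. The TATAA of Dcpp2 and of Smgc therefore lies inside the GENCODE gene. The Smgc window ends next to the GENCODE start of Muc19. Capitals mark TATAA on the gene's strand, the core of a TATA box, and GGAA on either strand (TTCC on the printed one), the core bound by Ets factors such as Elf5 and Ehf.
Dcpp1 (chr17:23880756-23880875): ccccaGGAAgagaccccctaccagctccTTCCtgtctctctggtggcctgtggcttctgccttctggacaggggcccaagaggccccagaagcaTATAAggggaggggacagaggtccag
Dcpp2 (chr17:23898602-23898721): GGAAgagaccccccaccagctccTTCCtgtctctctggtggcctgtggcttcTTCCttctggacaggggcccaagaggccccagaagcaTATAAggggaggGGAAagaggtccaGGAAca
Dcpp3 (chr17:23917338-23917457): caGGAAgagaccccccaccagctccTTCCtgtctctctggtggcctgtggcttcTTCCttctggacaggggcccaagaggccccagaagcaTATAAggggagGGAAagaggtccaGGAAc
Smgc (chr15:91838208-91838327): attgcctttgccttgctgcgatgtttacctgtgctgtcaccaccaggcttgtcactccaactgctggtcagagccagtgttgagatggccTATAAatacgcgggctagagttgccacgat
Bpifa2 (chr2:154008156-154008275): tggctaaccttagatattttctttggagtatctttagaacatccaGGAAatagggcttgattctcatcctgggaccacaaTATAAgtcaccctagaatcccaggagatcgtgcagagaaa
Each of the 5 holds 1 TATAA on its own strand. It begins 26, 31, 29, 30 and 40 bases before the RefSeq start in Dcpp1, Dcpp2, Dcpp3, Smgc and Bpifa2. Of 32851 RefSeq promoter windows, 4.93% hold TATAA on the gene's strand in the last 50 bases, and 11.8% hold it on either strand in 120 bases. The windows of Aqp5 and Bhlha15 and both windows of Elf5 hold none on the gene's strand. GGAA, searched on both strands, occurs 2 times in Dcpp1, 5 times each in Dcpp2 and Dcpp3, 1 time in Bpifa2 and 0 times in Smgc, and is common, being in 73.4% of windows. The bHLH core CANNTG, which reads the same on both strands, is in 40.2% of windows and among these 5 only in Smgc, 1 time. CATATG, 1 form of CANNTG, is in 1.39% of windows and in none of the members' windows. The Dcpp2 and Dcpp3 windows are 96.7% identical, and those of Dcpp1 are 89.6% and 91.1% identical to them. A match is a string of letters and not a shown binding site.

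The secreted products were present in quantity in mutant library 14 alone. Smgc was listed at 0 in libraries 15 and 20 and stood at 0.95 in mutant library 18 and 4219 in mutant library 14. Bpifa2 was listed at 0 in libraries 15, 20 and 18 and at 1009 in library 14. Muc19 was at 1.04 and 0 in libraries 15 and 20, at 0.95 in library 18 and at 214 in library 14. So these 3 genes stood at no more than about 1 read in 3 libraries, mutant library 18 among them, and at 214 to 4219 in the remaining one. For Bpifa2 and Muc19 the genotypes overlapped or tied. For Smgc they did not, but the lower mutant value is about 1 read.

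The Dcpp genes had a second, smaller rise in mutant library 18. For Dcpp1 the wild-type pair gave 3.16 and 0, mutant 18 gave 16.2 and mutant 14 gave 249. For Dcpp3 the wild-type pair gave 1.05 and 0.98, mutant 18 gave 19.1 and mutant 14 gave 408. Dcpp2, listed at 0 in the wild-type pair, reached 1.91 in mutant 18, about 2 reads, and 22.2 in mutant 14. Summed over the copies, the values were 4.21, 0.98, 37.3 and 679 in libraries 15, 20, 18 and 14, so both mutant libraries lay above both wild-type ones and library 14 was 18.2 times library 18. The log2 fold change, mutant minus wild type on log2(value + 0.5), was 5.58 (SE 1.36) for Dcpp1, 3.89 (SE 1.29) for Dcpp2 and 5.88 (SE 1.23) for Dcpp3 (n = 2 per genotype). With 1 library left out, Dcpp1 ranged from 3.63 (without mutant 14) to 7.53 (without mutant 18) and Dcpp3 from 3.69 to 8.07 in the same order. The SE of Smgc (log2 fold change 7.29, SE 3.01) and Bpifa2 (5.49, SE 2.92) was larger, with mutant libraries 18 and 14 far apart. Without mutant 18 they came to 13.04 and 10.98, and Muc19 went from 4.33 (SE 2.03) to 7.93. Without mutant 14, Dcpp2, Smgc, Muc19 and Bpifa2 fell under the filter and have no value.

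**Figure D1:**
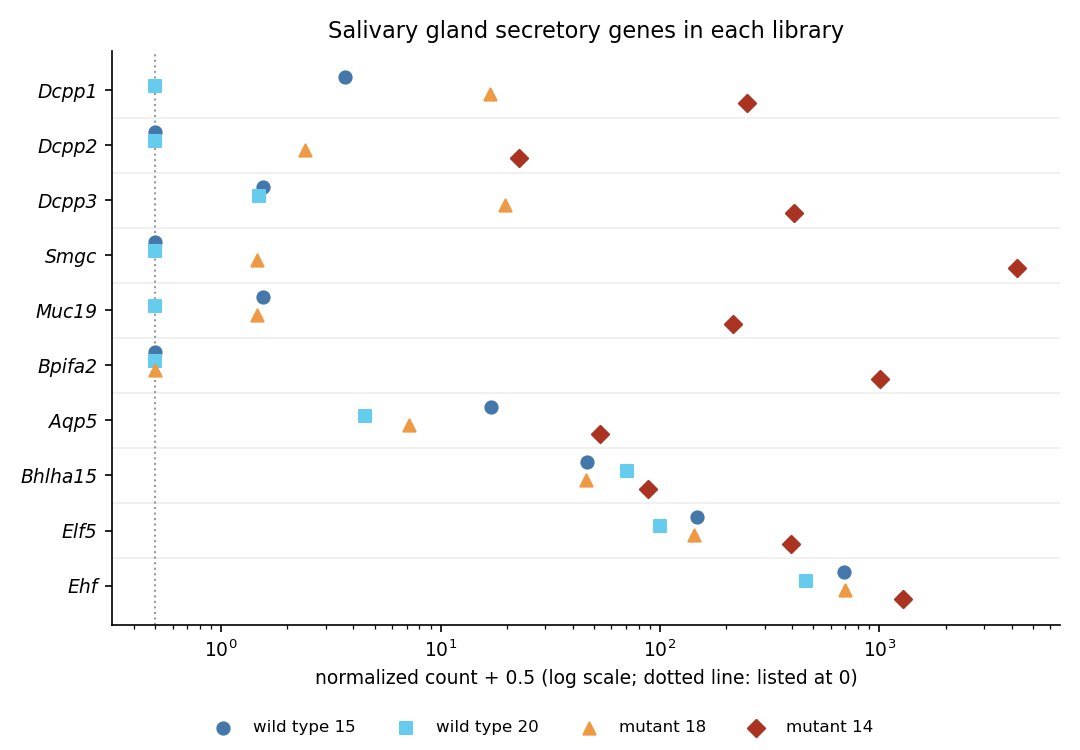
Normalized count + 0.5 of each of the 10 genes (log scale) in wild-type libraries 15 and 20 and mutant libraries 18 and 14; 1 point per library, and the dotted line marks genes listed at 0. The 6 secreted products sit at or below 19.1 in libraries 15, 20 and 18 and between 22.2 and 4219 in library 14, while Bhlha15, Elf5 and Ehf are present in all 4.

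The listed mix of secreted products is given for each mutant library on its own, as a description of 1 library each. In library 14 Smgc made up 68.9% of the summed secreted products and the Dcpp genes 11.1%, and in library 18 the shares were 2.43% and 95.1%. Taking a value divided by the library's low step as reads, about 4161 of 4832 Smgc and Dcpp reads were Smgc in library 14 (86.1%, exact binomial 95% interval 85.1% to 87.1%). In library 18 about 1 of 40 was (2.5%, interval 0.0633% to 13.2%). These intervals cover counting error within 1 library only and rest on approximate reads of genes chosen by their levels. They are therefore no test of library 14 against library 18. The library 15 and 20 sums of 4 and 1 reads are too small to give a mix. Within the Dcpp family the proportions were closer: Dcpp3 was 1.18 times Dcpp1 in library 18 and 1.64 times in library 14, and Dcpp2 gave 5.12% and 3.27% of the family sum.

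As a sum, the 6 secreted products came to 5.26, 0.98, 39.2 and 6122 normalized counts in libraries 15, 20, 18 and 14, or 0.235, 0.0434, 1.74 and 277 when each library is scaled to CPM. The mutant mean was 988 times the wild-type mean, and without library 14 the ratio was 12.6. Without the Dcpp genes the sums were 1.04, 0, 1.91 and 5442. In bulk tissue, more gland cells in a sample and more RNA per gland cell cannot be told apart.

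Aqp5, the apical channel that lets water into saliva, followed the same library at a lower level. The wild-type pair gave 16.5 and 4.001, mutant 18 gave 6.68 and mutant 14 gave 52.8. Library 14 was 3.21 times the next library, wild type 15, and the genotypes overlapped. Its log2 fold change of 1.16 (SE 1.02) turned to -0.28 when library 14 was left out.

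The transcription factor genes were expressed in every library and rose far less. Bhlha15 (Mist1), which drives the secretory architecture of acinar cells, gave 45.9 and 70.4 in the wild-type pair, 45.7 in mutant 18 and 87.5 in mutant 14. Library 14 was the highest but only 1.24 times wild-type library 20, and mutant library 18 lay level with wild-type library 15 below them. Elf5, an Ets factor of glandular and other epithelia, gave 147 and 99.2 in the wild-type pair, 142 in mutant 18 and 396 in mutant 14, so the genotypes overlapped and library 14 was 2.70 times the next. Ehf, an Ets factor of simple and stratified epithelia, gave 689 and 461 in the wild-type pair, 695 in mutant 18 and 1277 in mutant 14. The lower mutant value was barely above the higher wild-type value, and library 14 was 1.84 times the next. Their log2 fold changes were 0.15 (SE 0.41), 0.97 (SE 0.45) and 0.74 (SE 0.30), and without library 14 they were -0.31, 0.23 and 0.30.

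All 10 members were highest in library 14, which was the highest of the 4 for 25.9% of the 17979 genes tested (26.6%, 24.3% and 23.2% for libraries 15, 20 and 18). The 6 secreted products were at least 8 times higher there than in every other library, a pattern of 0.217% of genes. In 5 of 10 the mutant values lay above the wild-type values with no overlap (13.4% of all genes tested), namely Dcpp1, Dcpp2, Dcpp3, Smgc and Ehf, and for Dcpp2 and Smgc the library 18 value is under 3 reads and cannot rank the libraries. Since the members were proposed from these values, nothing is read from those counts. All 10 reached the minimum mean of 1, but Dcpp2, Smgc, Muc19 and Bpifa2 passed that filter only through library 14, their mean over the other 3 libraries being at most 0.67. The median log2 fold change was 4.11 over the members and 0.0025 over all genes. Between the genotypes limma called 2 genes over the whole table (adjusted p under 0.05, 0.0111%).

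**Figure D2:**
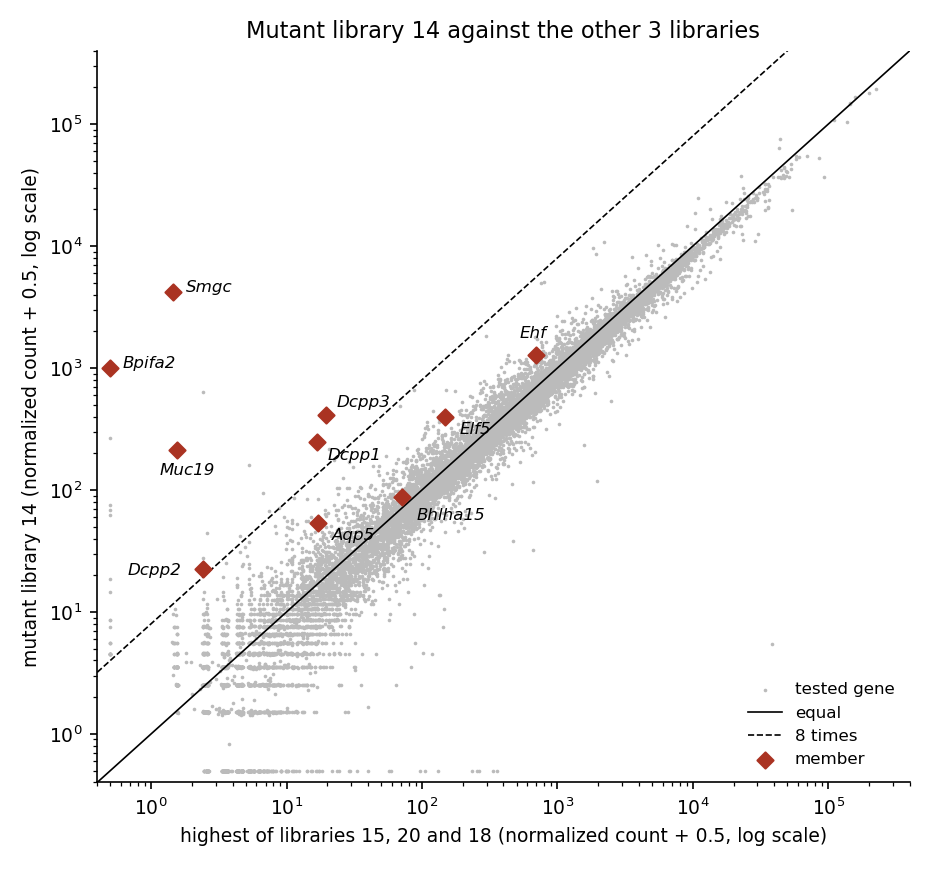
Each grey point is 1 of the 17979 tested genes, with its highest value in libraries 15, 20 and 18 on the x axis and its value in mutant library 14 on the y axis (normalized count + 0.5, log scales); red diamonds are the 10 members. The 6 secreted products lie above the dashed line of 8 times, with Dcpp2 next to it, and the other 4 members lie between the line of equal values and the dashed line.

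Other genes of salivary secretion were divided. Of 15 further acinar secreted proteins, 9 could be tested. Lactoperoxidase, Lpo, an antimicrobial enzyme of saliva, was at 1.05, 0, 0.95 and 190 in libraries 15, 20, 18 and 14. Pip, the prolactin-inducible protein, was listed at 0 in libraries 15, 20 and 18 and at 67.9 in library 14. Agr2, a disulfide isomerase of mucus-making cells, was at 5.27, 3.93, 11.5 and 52.5. Bpifb2, a further relative of Bpifa2, was low but also highest in library 14, at 1.05, 0, 2.86 and 5.08. Prol1 and Prh1 were listed at 0 outside library 14, where they stood at 3.04 and 1.01, about 3 reads and 1 read, and were not tested. Others differed: the amylase gene Amy1 was at 20.1, 24.6, 12.4 and 20.1, and Cst10, Prb1 and Esp4 were listed at 0 everywhere. Pigr was highest in library 15, with 5.92, 0 and 11.2 in libraries 20, 18 and 14. Car6 was highest in library 18, at 2.11, 3.94, 6.67 and 2.03 in libraries 15, 20, 18 and 14. Lyz1 (2.11, 1.97, 0 and 0) and Bpifb1 (1.05, 2.96, 0 and 1.02) stood at about 3 reads or fewer throughout. Dnase1 was at 0.95 in library 18 alone and was not tested. Lpo and Pip passed the filter on low values only through library 14, so the count of 4 of 9 highest in library 14 and the median log2 fold change of 0.32 describe the genes that passed and support nothing. Limma called 0 of them, with 1 higher and 0 lower at an unadjusted p under 0.05 (3.12% and 1.15% of all genes). The same shares over all genes belong beside these counts in every list below.

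The machinery of acinar secretion showed no such rise as a list. Of 14 receptors, channels and secretory regulators, 5 were highest in library 14, and the median log2 fold change was 0.0019 (0 called by limma, 1 higher and 1 lower at an unadjusted p under 0.05). Slc12a2, the chloride uptake transporter NKCC1, was at 2547, 2476, 2385 and 2318 in libraries 15, 20, 18 and 14. The chloride channel gene Ano1 was at 1312, 1332, 1135 and 975, and the secretory-stress factor Xbp1 at 3552, 3718, 3560 and 3308. These genes are also used by many other cells of the jaw. The 5 highest in library 14 rose less than the secreted products. The muscarinic receptor Chrm1, which triggers salivary secretion, was at 11.4, 11.8, 12.5 and 32.7, and Chrm3 at 38.8, 17.8, 26.7 and 52.6. Rab3d was at 907, 727, 957 and 1428, Cldn10 at 86.6, 108, 53.6 and 164, and Creb3l4 at 51.2, 46.5, 42.7 and 72.3.

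Duct genes leaned to library 14. Of 15 duct and ionocyte genes, 14 were highest there and the median of library 14 over the next library was 1.60, against 0.896 over all genes. All 15 log2 fold changes were above 0 (median 0.53), as were 9093 of the 17979 genes tested. Limma called 0, and 1 was higher and 0 lower at an unadjusted p under 0.05 (3.12% and 1.15% of all genes). The duct keratin Krt19 was at 434, 422, 369 and 1281 in libraries 15, 20, 18 and 14, Krt7 at 1014, 1042, 1079 and 2435, Tfcp2l1 at 715, 623, 634 and 1120, and the receptor Kit at 744, 571, 615 and 838. Foxi1, the ionocyte factor, was at 12.6, 16.8, 18.1 and 41.6. Ascl3, a relative of Ascl5 found in salivary ducts, was the exception and was highest in library 18, at 6.26, 9.86, 11.5 and 10.2.

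Genes of the early gland bud and of contractile myoepithelium were less set apart. Among 13 bud genes 8 were highest in library 14, with a median log2 fold change of 0.04 (0 called, 1 higher and 2 lower at an unadjusted p under 0.05). Their most abundant members, Fgfr2 (5639, 5810, 5411 and 5151) and Lama5 (2623, 2569, 2375 and 3022), varied little. Sox10, which marks end buds and also nerve glia, was at 311, 201, 259 and 486. Cldn3 was at 34.3, 19.5, 15.2 and 106. Of 8 myoepithelial genes 4 were highest in library 14 (median 0.15, 0 called, 1 higher and 0 lower at an unadjusted p under 0.05), and the smooth muscle actin Acta2 was at 4728, 4634, 5265 and 4600. Adult granular duct genes (5 tested, median 0.05, 0 called and 0 at an unadjusted p under 0.05) held Klk1 at 89.1, 351, 275 and 123, where the genotypes overlapped, and Egf at 86.5, 52.3, 89.3 and 99.0, where the mutant values lay just above.

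**Figure D3:**
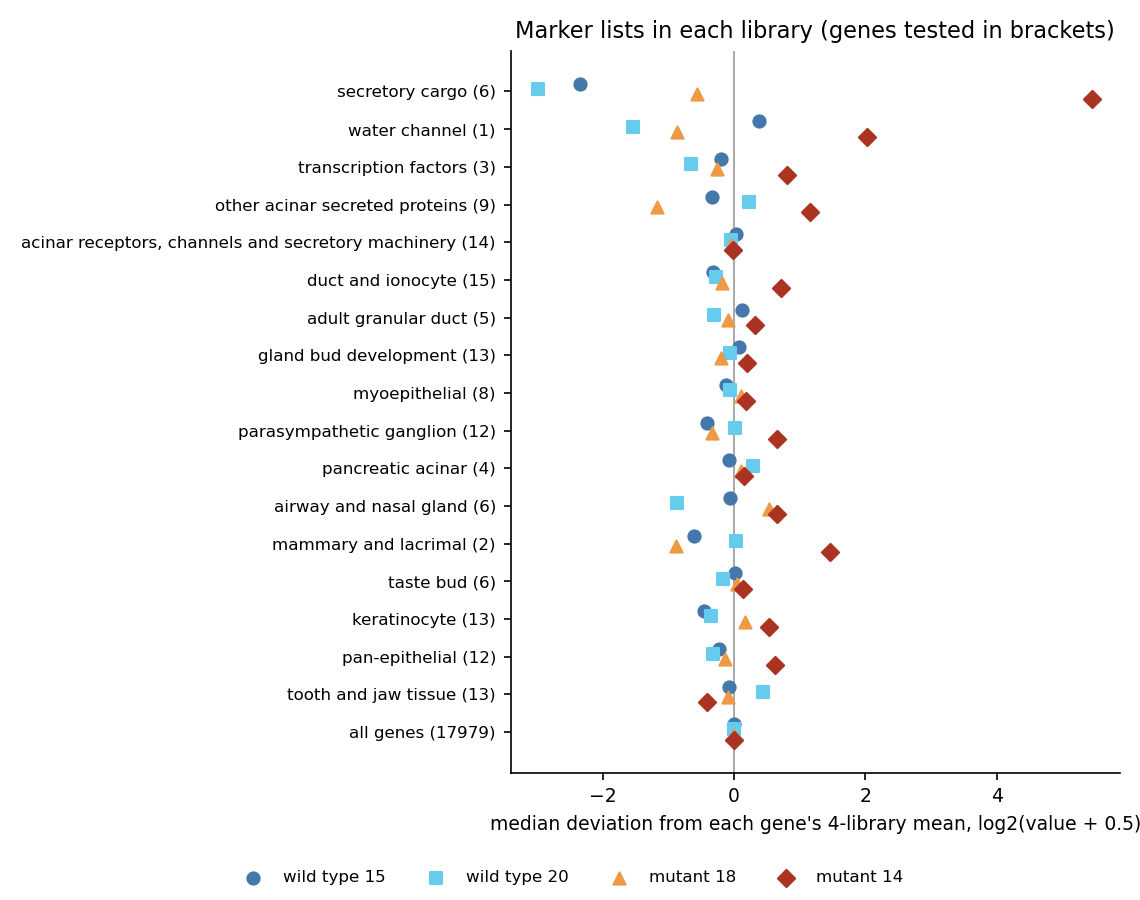
For each list, the median over its tested genes of log2(value + 0.5) minus the gene's mean over the 4 libraries (x axis, log2 units), 1 point per library, with the number of tested genes in brackets. Library 14 lies at 5.45 for the secreted products, 0.71 for duct and ionocyte genes, 0.63 for pan-epithelial genes, 0.54 for keratinocyte genes and -0.41 for tooth and jaw genes, and the median over all genes lies near 0.

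Other epithelia moved with library 14 as well, which touches Elf5, Ehf and the duct genes, since these are not specific to glands. All 12 pan-epithelial genes were highest in library 14, with a median ratio to the next library of 1.61 and a median log2 fold change of 0.42 (0 called by limma, 4 higher and 0 lower at an unadjusted p under 0.05). Over all genes tested, 25.9% were highest in library 14, and 3.12% were higher and 1.15% lower at that p. Cdh1 was at 1973, 1929, 1987 and 3298 in libraries 15, 20, 18 and 14, and the summed list at 6657, 6688, 7021 and 11769. In 7 of the 12 both mutant libraries lay above both wild-type ones (13.4% of all genes tested). All 13 keratinocyte genes tested were also highest there (median ratio 1.47, median log2 fold change 0.82, 0 called, 8 higher and 0 lower at an unadjusted p under 0.05). Krt10 was at 26688, 18842, 44334 and 75914, and the list summed to 124983, 126042, 192085 and 287722 in that order. The keratinocyte rise was thus not confined to library 14, and in 10 of the 13 both mutant libraries lay above both wild-type ones (13.4% of all genes tested). Tooth and jaw genes were the reverse, with 0 of 13 highest in library 14, a median ratio of 0.528 and a median log2 fold change of -0.45 (0 called, 0 higher and 4 lower at an unadjusted p under 0.05). The Ehf ratio of 1.84 and the Elf5 ratio of 2.70 lay far below the 15.3 and 21.3 of Dcpp1 and Dcpp3. Single epithelial genes reached ratios above that of Ehf, among them Lor (2.26), Cldn4 (1.98) and Sbsn (1.89). Lor had the highest ratio of the pan-epithelial and keratinocyte lists, below the 2.70 of Elf5. The part of keratinocytes and other epithelium in the levels of Elf5 and Ehf was not tested.

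Markers of other secretory tissues were at or near 0 in library 14. Of 10 pancreatic acinar genes, Cela2a, Prss1, Prss2, Pnlip and Ptf1a were listed at 0 in all 4 libraries, and the 4 that could be tested had a median ratio of 0.76 in library 14. The milk genes Csn2 and Wap were listed at 0 in all 4. Pax6, an eye and lacrimal gland factor also made by neurons, was at 2.06, 3.04, 0.98 and 24.6. In the airway and nasal gland list 2 of 6 tested genes were highest in library 14 (median log2 fold change 0.76, 0 called and 0 at an unadjusted p under 0.05). Its leading gene Bpifa1, a secreted protein of upper airway and nasal epithelium and a relative of Bpifa2, was at 658 in wild-type library 15, 5.92 in wild-type 20, 30.5 in mutant 18 and 405 in mutant 14. Bpifa1 therefore split the wild-type libraries and was not ordered like Bpifa2. Of 6 taste bud genes tested 2 were highest in library 14 (median 0.16, 0 called, 1 higher and 0 lower at an unadjusted p under 0.05).

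The salivary glands receive parasympathetic nerves from ganglia that lie against them. Of 12 genes of such ganglia 8 were highest in library 14, with a median ratio of 1.32 and a median log2 fold change of 0.42 (0 called, 1 higher and 0 lower at an unadjusted p under 0.05). Its most abundant gene, Gfra2, the receptor for neurturin, was highest in wild-type library 15, at 1229, 963, 815 and 989 in libraries 15, 20, 18 and 14. Hand2 was at 630, 490, 728 and 866. Ret was at 236, 225, 194 and 425, and the neurturin gene Nrtn at 72.5, 71.5, 52.4 and 126. Vip, a transmitter of these neurons, was highest in wild-type library 20, at 36.3 against 17.2 in library 14.

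Across the 4 libraries, 12 named genes outside the members were most like the mean log2 profile of the 6 secreted products by Pearson r (0.9818 or more). With 4 libraries that all share the rise in library 14, r describes shape only. They were selected for this shape, so what they have in common is no finding. Wfdc18, a small secreted protease-inhibitor relative, was at 11.6, 7.84, 20.1 and 217 in libraries 15, 20, 18 and 14, and Spdef, an Ets factor of goblet and other mucous cells, was at 2.06, 2.01, 4.75 and 36.7. A2ml1, a secreted protease inhibitor of the alpha-2-macroglobulin family, was at 1.05, 0, 1.90 and 639, the highest of the 12 in library 14. Lman1l, a relative of a cargo receptor between endoplasmic reticulum and Golgi, was listed at 0 in the wild-type pair, with 1.90 in mutant 18 and 27.4 in mutant 14. Lpo and Agr2, given above, were also among them. The other 6 were Atp2b2, Cntn2, Mmp27, Hoxc4, Pirt and Cyp4x1, of which Cntn2 (28.2, 16.8, 30.5 and 152) and Pirt (10.5, 12.8, 25.7 and 125) are known from neurons. In 10 of the 12 mutant library 18 came second, an order that the measure of likeness favours, and for Mmp27, A2ml1, Lman1l and Hoxc4 its value is about 3 reads or fewer and ranks nothing.

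**Figure D4:**
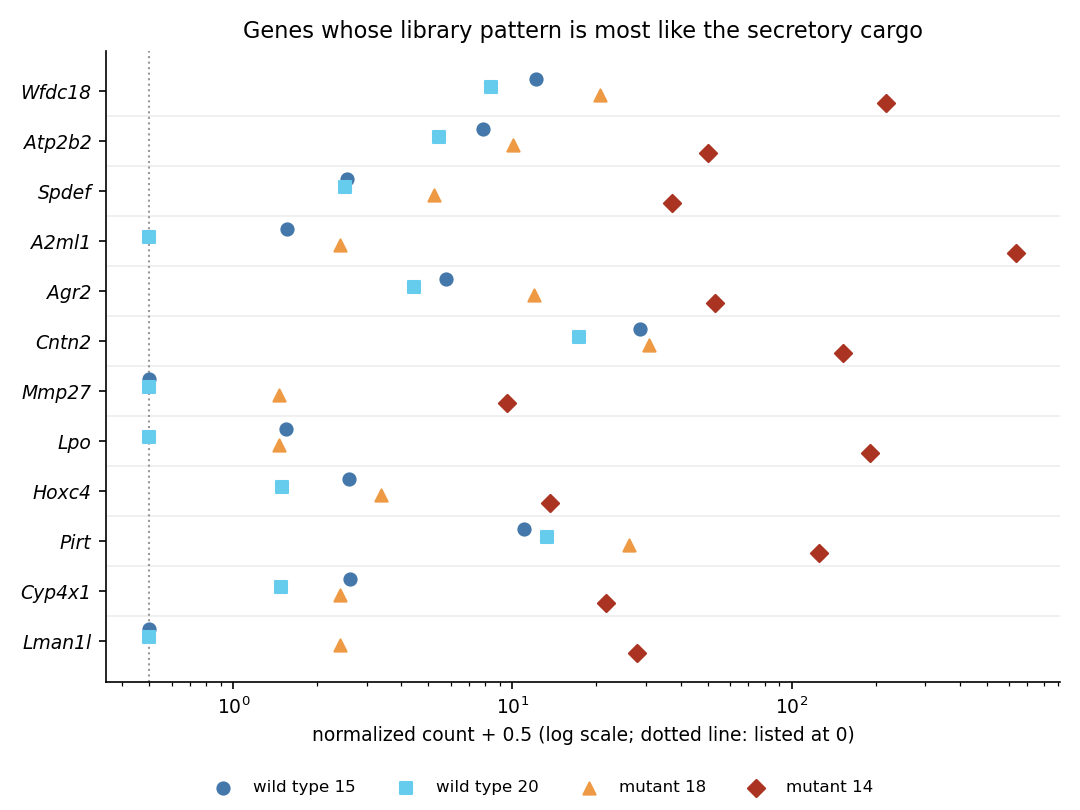
Normalized count + 0.5 (log scale) of the 12 genes whose pattern over the 4 libraries was most like that of the secreted products, 1 point per library, with the dotted line at genes listed at 0. Library 14 is the highest for all 12, up to 639 for A2ml1, and the other 3 libraries stay at or below 30.5.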

How the data were processed

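RNA of 4 mandibular dental arch samples was sequenced. Per the labels, libraries were made with a kit that selects mRNA and keeps strand. Each deposited signal value is a normalized count made by the authors for 1 gene in 1 library. Per the submitters' processing notes DESeq2 and build mm10 were used. For the aligner, counter, strand setting and annotation nothing is stated in those notes. Only 32.0% to 37.8% of values above 0 are whole reads within 0.1 of a read (88.1% to 93.3% of those up to 10 reads), so no count test was run.

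Genes with a mean of at least 1 (17979 of 24972, with 5583 at 0 throughout) were fitted on log2(value + 0.5) with limma 3.58.1 in R 4.3.3, mutant against wild type, with a mean-variance trend and Benjamini-Hochberg adjustment over all genes tested. The fit was tested on simulated data. An exact two-sided permutation test of 2 against 2 libraries cannot give a p under 0.333. Nothing in the labels says that samples come from separate litters, so the spread behind each p-value is that of these samples only and may be partly technical. The wild-type libraries differ in sex (Xist 38619 in library 15 and 12.7 in library 20), so they do not come from a single embryo. Whether the mutant libraries do is not stated.

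The members and the 14 lists of other genes were chosen with earlier results of these data known. Named genes were drawn from all members, up to 4 genes with the highest mean per list, and the 12 genes, outside predicted names, most like the secreted products among those with an 8-fold range. List genes named beyond these were chosen after their values were seen. Coordinates are from GENCODE M21, on GRCm38, which mm10 denotes (24490 symbols matched). No library was paired with another. Alternatives covered scaling, pseudocount, filter, trend and each library left out.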

Additional observations from a re-analysis of the deposited data

How the results depend on the processing

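The number of genes called by limma over the whole table was 2, and it was 4 with a pseudocount of 1, 1 with no filter on low values, 1 without the mean-variance trend and 0 to 6 with 1 library left out (0 without mutant library 14, with 447 genes at an unadjusted p under 0.05, 0 without mutant 18, with 1219, 6 without wild-type 20 and 3 without wild-type 15). The ratio of mutant to wild-type mean of the summed secreted products ranged from 12.6 (without mutant 14) to 3140 (without wild-type 15), with 1963 without mutant 18 and 586 without wild-type 20. The members' median log2 fold change ranged from 0.27 (without mutant 14) to 6.52 (without mutant 18). Without library 14 only 6 members kept a mean of at least 1, so that median covers fewer genes. Under both other scalings the ratio (988 and 999) and the median (4.11 in each) stayed close. The deposited values were already normalized and the library totals nearly equal, so these scalings could change little. Bhlha15 and Aqp5 were the 2 members whose log2 fold change turned sign under an alternative, both without mutant 14 (-0.31 and -0.28) and Bhlha15 also without wild-type 15. Fits without a library have 1 residual degree of freedom and assume that a lone library varies like the other genotype. Values at or under about 3 reads (2.86 to 3.16 normalized counts) cannot rank the libraries. No paired analysis was possible because the genotypes share no library code.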

Other observations

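Some genes known from pain- and itch-sensing neurons were picked after their values were seen, for being high in mutant library 14, and are given as values only. The sodium channel gene Scn10a was at 4.19, 3.95, 4.76 and 159 in libraries 15, 20, 18 and 14, and Scn11a at 4.21, 6.89, 5.72 and 66.8. The ATP receptor gene P2rx3 was at 10.5, 17.7, 21.9 and 176, the sensory neuron factor Prdm12 at 2.08, 0, 0 and 44.0, and the itch receptor gene Mrgprx1 was listed at 0 in all but library 14, where it was at 18.3. The neurofilament gene Nefm was at 86.4, 53.7, 56.3 and 661, and the glutamate transporter gene Slc17a6 at 8.25, 0, 5.84 and 70.1. In mutant library 18, P2rx3 lay above both wild-type libraries, as did Pirt, while Scn11a lay between them.

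Relatives of Bpifa2 had patterns of their own, also noticed after the values were seen. Bpifb9b was highest in mutant library 18 (12.6, 2.96, 88.6 and 5.06 in libraries 15, 20, 18 and 14), whereas Bpifc was higher in both mutant libraries (265, 256, 581 and 848). Among other mucin genes, Muc15 was at 172, 148, 297 and 448 and Muc1 at 98.2, 69.2, 80.9 and 91.4, so the rise of Muc19 in library 14 was not shared by Muc1.

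Some entries of 0 stand beside high values of a related gene, and whether such a 0 means absence was not tested. Amd1, which encodes an enzyme of polyamine synthesis, was listed at 0 in libraries 15, 20 and 18 and at 268 in library 14, while its copy Amd2 was at 2484, 3241, 3264 and 2569. Gvin1 was at 75.0 in library 14 alone, while Gm4070 was at 202, 165, 204 and 48.3. The sequences of these pairs were not compared. Bpifa2, with the same 0 entries, overlaps no annotated gene, and how its reads were assigned was not tested.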
